A study of Oryza sativa with 12 samples.

Results

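The first of 3 runs of loci at which the rice introgression line IL22 differs from its parent OLESA lies near one end of chromosome 1. Its members were the locus IDs from Os01g0108200 to Os01g0189100 with a mean CPM (counts scaled to a common library total) of at least 5 in at least 1 of the 4 groups, apart from 8 IDs that the rule leaves out. Of 639 IDs in the range, 382 stayed below that level (85 of them without any count), which left 249 members among the 36844 features of the deposited table. The range was selected on measured differences between IL22 and OLESA in the salt-treated libraries, so those differences are given as a description without a test. In all, 204 members reached the level in both genotypes, 23 in IL22 alone and 22 in OLESA alone. A member of the last 2 kinds had to differ between the genotypes in at least 1 condition.

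The leaves of rice seedlings grown in nutrient solution were sequenced (RNA-Seq). IL22 is a single line bred by repeated backcrossing of the salt-tolerant *indica* donor FL478 to the salt-sensitive *japonica* cultivar OLESA, and the libraries that the labels code PL12 were read as OLESA because no other parent entered the RNA-Seq design. The groups were IL22 and OLESA after 24 h with 80 mM NaCl added, and IL22 and OLESA without added NaCl, with 3 libraries each from separate sets of 4 plants, so p-values measure the spread between such sets. Total counts ran from 11505396 to 19141122 in salt-treated IL22, from 12861373 to 20034664 in control IL22, from 12163349 to 20541526 in salt-treated OLESA and from 14594645 to 23578477 in control OLESA. The members took 1.09 to 1.14%, 0.935 to 1.07%, 1.10 to 1.25% and 0.98 to 1.12% of the counts in these groups. IL22 control replicate 1 correlated with replicates 2 and 3 of its group at r = 0.942 and 0.937 across features, whereas replicates 2 and 3 correlated at r = 0.966. Pairs within the other groups ran from r = 0.950 to 0.981.

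An introgression line carries segments of a donor genome in the background of a recurrent parent, and a selected donor allele brings linked donor alleles with it. *Indica* and *japonica* rice differ in gene sequence and in the presence of whole genes. Fragments were counted here on *japonica* gene models, so a low count in IL22 can come from low expression, from a gene that the donor lacks or from donor fragments that did not align, and these cannot be told apart in counts. In bulk leaf samples, fewer cells of a type and less RNA per cell cannot be told apart either. The counts do not show which allele a plant carries, and none of the member IDs could be paired with a gene name, a function or a coordinate. IDs are printed as deposited, and their numerical order was taken as position. The leaf label was not checked against marker genes for the same reason.

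Under control conditions, whose libraries did not choose the range, IL22 and OLESA differed at loci spread over most of the run and in both directions. With the 6 control libraries alone, 28 of 248 members tested were called by edgeR's quasi-likelihood test (adjusted p of 0.05 or less over all 19635 features and a log2 fold change, FC, beyond 0.5). This is 11.3% of the members, against 0.794% of all features tested. IL22 was higher at 13 (0.300% of all features) and lower at 15 of them (0.494% of all features). Of the 28, 25 had reached 5 CPM in 1 genotype alone. Among the 204 members that reached it in both genotypes, 3 were called (1.47%). Outside the 3 runs the share was 0.23% of 14318 features. Those features had to reach 5 CPM in only 1 of the 4 groups, so the 2 sets met unlike limits. All locus IDs of the range, with no demand on CPM beyond the filter on low counts, gave 42 calls of 362 (11.6%), 21 in each direction.

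Values of IL22 and OLESA did not overlap in 98 of 248 members in control (39.5%), against 16.1% of all features tested. A log2 FC beyond 1 was seen in 64 members (25.8%), against 8.2% of all features. Both counts include members that reached 5 CPM in 1 genotype alone and so had to differ. Among the 204 members that reached it in both genotypes, the shares were 30.4% and 13.7%. Outside the runs they were 15.6% and 5.68%, in features held to 5 CPM in only 1 of the 4 groups. The median log2 FC of the members was -0.06 and the median of its size was 0.43, against 0.01 and 0.31 over all features. The members thus lay on both sides of 0, and most differed little. The count of calls was 20 to 23 without each of 5 control libraries in turn, but 90 without IL22 control replicate 1, when 3289 features were called in all.

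The 4 members named for the genotype difference were present in one genotype and nearly or wholly without counts in the other. Os01g0148400 measured 26.6, 23.4 and 20.2 CPM in control IL22 libraries, against 0, 0.0713 and 0 CPM in control OLESA, the middle value being a single fragment. Its log2 FC was 9.68 ± 0.52 (SE, adjusted p = 5.68e-05). Salt-treated IL22 had 29.6, 25.5 and 33.8 CPM and salt-treated OLESA none, so the groups were far apart in both conditions. A near neighbour in ID order, Os01g0148100, had 20.4, 10.3 and 12.7 CPM in control IL22, against 1 fragment in each OLESA control library (log2 FC 7.70 ± 0.49, adjusted p = 0.000165).

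The members named for lower levels in IL22 both stood near the last end of the run. Os01g0188900 had 0.0487, 0.16 and 0.0651 CPM in control IL22, against 21.7, 24.2 and 18.2 CPM in control OLESA (log2 FC -7.87 ± 0.40, adjusted p = 4.7e-05). Under salt it had 0.141, 0.258 and 0.0804 CPM in IL22, against 17.6, 17.3 and 17.1 CPM in OLESA, so the difference was present in both conditions. Os01g0184200 had no fragment in the 3 control IL22 libraries, against 51.5, 41 and 26.1 CPM in control OLESA (adjusted p = 0.000379). A single fragment was counted in salt-treated IL22 replicate 1, against 65.7, 55.8 and 45.7 CPM in salt-treated OLESA. All 4 of these calls held in each of the 11 alternative settings. Each of the 4 had reached 5 CPM in 1 genotype alone, so a difference between the genotypes was built into its membership.

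**Figure D1:**
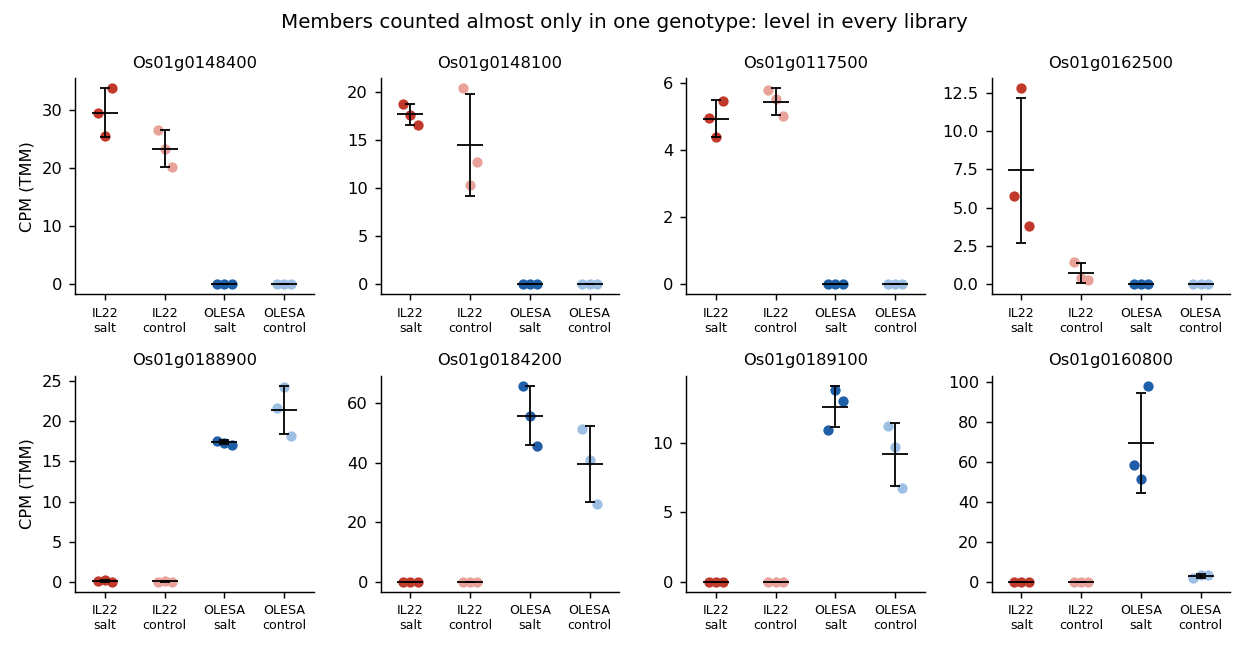
Level of 8 members in every library, in TMM-normalized CPM on linear axes that differ between panels. Points are the 3 libraries of each group and bars give the mean and SD. The top row shows members with 0 or 1 fragment in each OLESA library, and the bottom row shows members with 0 to 4 fragments in each IL22 library.

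No fragment was counted for 6 members in any library of one genotype, which is 2.41% of the members, against 0.172% of 15073 features that reached 5 CPM anywhere. Outside the 3 runs, 2 of 14370 such features were without a count in IL22 and 0 were without a count in OLESA. Of the 6 members, 4 were without a count in IL22 (Os01g0136600, Os01g0158500, Os01g0160800 and Os01g0189100) and 2 in OLESA (Os01g0117500 and Os01g0162500). All 6 had reached 5 CPM through the other genotype alone, and the salt-treated libraries chose the range, so these shares are a description. A bound on the fold was set by 3 counts over the empty group.

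In OLESA, Os01g0189100 had 10.9, 13.8 and 13 CPM under salt and 11.2, 9.69 and 6.72 CPM in control. It was thus at least 207-fold lower in IL22 under salt and at least 148-fold lower in control. The reverse was seen at Os01g0117500, with 4.97, 4.38 and 5.47 CPM in salt-treated IL22 and 5.80, 5.53 and 5.01 CPM in control IL22, against no fragment in OLESA. It was at least 85.4-fold higher in IL22 under salt and at least 88.4-fold higher in control. Neither passed the test for salt in the genotype that had counts.

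In 2 of the 6 members, the genotype that had counts was called higher under salt. Both reached 5 CPM only in the salt-treated group of that genotype, so the limit on CPM favoured a rise. Os01g0160800 rose to 58.6, 51.4 and 98.1 CPM in salt-treated OLESA, against 1.97, 3.63 and 3.41 CPM in control OLESA. Its log2 FC for salt was 4.52 ± 0.35 (SE, adjusted p = 0.000304 by edgeR over all 20760 features), the highest among members called for salt in OLESA, and that call held in all 17 alternative settings. IL22 had no fragment of it in either condition, which puts it at least 1140-fold lower in IL22 under salt and at least 48.5-fold lower in control. Os01g0162500 showed the mirror image at a lower level. It rose to 5.76, 12.8 and 3.78 CPM in salt-treated IL22, against 1.46, 0.401 and 0.260 CPM in control IL22 (log2 FC 3.31 ± 0.70, adjusted p = 0.0302), with no fragment in OLESA. That call was lost without IL22 control replicate 2 (adjusted p = 0.119) or 3 (0.092) and without salt-treated IL22 replicate 1 (0.084) or 2 (0.131). The locus was at least 129-fold higher in IL22 under salt and at least 11.5-fold higher in control, where its counts were too low for the test of genotype. The difference between genotypes in these 2 responses has no usable estimate, because one side is empty.

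The 3 members that were called in control although both genotypes reached 5 CPM were Os01g0120300, Os01g0130400 and Os01g0158900, named here after their values were seen. Os01g0120300 had 225, 185 and 180 CPM in control IL22, against 92.0, 90.4 and 73.3 CPM in control OLESA (log2 FC 1.20 ± 0.18, adjusted p = 0.0206). Os01g0130400 had 50.0, 61.9 and 70.9 CPM in control IL22, against 12.5, 18.9 and 24.4 CPM in control OLESA (log2 FC 1.71 ± 0.27, adjusted p = 0.0239). Os01g0158900 had 88.8, 122 and 114 CPM in control IL22, against 35.0, 35.3 and 30.8 CPM in control OLESA (log2 FC 1.68 ± 0.19, adjusted p = 0.00401). All 3 were higher in IL22 and none overlapped. Os01g0158900 was called whichever control library was left out. The call of Os01g0120300 was lost without any 1 of OLESA control replicates 1, 2 and 3 (adjusted p = 0.0866, 0.14 and 0.105) or IL22 control replicates 2 and 3 (0.0941 and 0.0661). That of Os01g0130400 was lost without OLESA control replicate 1 or 2 (0.0662 and 0.14) or IL22 control replicate 2 or 3 (0.101 and 0.0969). Of these, Os01g0158900 also rose with salt in OLESA, with 66.8, 92.9 and 75.4 CPM under salt (log2 FC 1.22 ± 0.16, adjusted p = 0.000858), against 123, 132 and 125 CPM in salt-treated IL22.

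Under salt, the condition that chose the range, 57 of 249 members had a log2 FC beyond 1 with values that did not overlap, 26 higher and 31 lower in IL22. Over all features these shares were 7.40% in either direction, 3.53% higher and 3.87% lower, and nothing is read from the excess. Each of the 28 members called in control had the same sign under salt, and none overlapped there. Their median size of log2 FC was 4.71 under salt and 4.99 in control, and the smallest under salt was 0.69. Most of the 28 had reached 5 CPM in 1 genotype alone, and the salt-treated libraries chose the range, so this agreement is a description. In 61 members (24.5%; 29 higher and 32 lower in IL22), IL22 and OLESA did not overlap in the same direction in both conditions. The share over all features was 2.73%, but the salt-treated libraries chose the range and the limit of 5 CPM favours such members, so nothing is read from this excess either. In 4 members they did not overlap in either condition but in opposite directions. The share of such features over all features is not given, so nothing is read from this count.

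The log2 FC of the members under salt and in control correlated at r = 0.93 (Spearman's rho = 0.48, 248 members). Among the 204 members at 5 CPM in both genotypes, r was 0.35 (rho = 0.18). Features outside the runs, held to 5 CPM in only 1 of the 4 groups, gave r = -0.22 (rho = -0.41, 14318 features). These correlations are across genes, which are not independent replicates, and the 2 log2 FC come from different libraries of the same 2 lines. The values under salt chose the range, and members that reached 5 CPM in 1 genotype alone had to differ. Nothing is therefore read from the contrast between these sets.

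**Figure D2:**
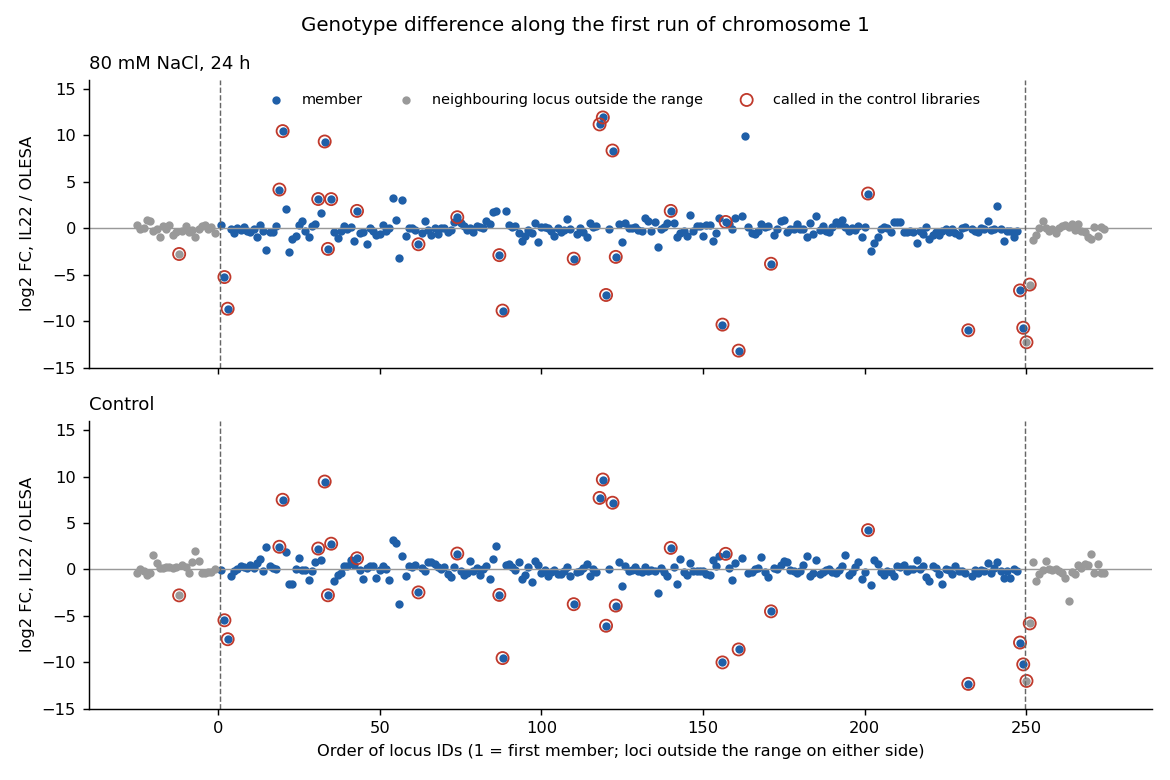
log2 FC of IL22 over OLESA for the 249 members in ID order, with 25 loci outside the range on each side, under salt (top) and in control (bottom). Circles mark loci called in the control libraries, dashed lines mark the ends of the range, and the values of members without counts in one genotype are fitted values, not bounds. Members far from 0 lie on both sides of the line over much of the run, among many members close to 0. Of the last 24 members, 3 were called in control, all of them lower in IL22.

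Members called in control were found in 9 of the 10 stretches into which the run was divided. In stretches of 25 members in ID order, the calls in control numbered 4, 5, 2, 2, 6, 1, 4, 0, 1 and 3. The stretch without a call by edgeR had 8 members whose values did not overlap and 3 calls by DESeq2, and 8 of its members had an unadjusted p under 0.05. In the 25 loci just before the range these numbers were 8, 3 and 7, so nothing is read from them. Over all features tested the shares were 16.1%, 2.89% and 13.8%. Of 248 pairs of neighbouring members, both members were called in 10, with opposite directions in 5 pairs and the same direction in 5. The share of such pairs over all features is not given, so nothing is read from these counts. An example of opposite neighbours is Os01g0148400, higher in IL22, which has Os01g0148500 next to it at a log2 FC of -6.06 (adjusted p = 0.00261), an ID chosen after its value was seen. Os01g0148400 had reached 5 CPM in IL22 alone and Os01g0148500 in OLESA alone, so both had to differ between the genotypes.

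By level, the 83 members with the lowest mean CPM (2.17 to 12) held 21 of the 28 calls, the middle 83 held 4 and the highest 83 (35.7 to 794) held 3. The median size of log2 FC was 0.73, 0.42 and 0.29 in these classes. The mean is taken over both genotypes, so a member near 0 in one of them falls into a lower class for that reason, and nothing is read from the order of the classes. Of the 11 members whose ID number is not a multiple of 100, 1 was called, against 27 of the other 237 tested.

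The limits of the range did not coincide with the last difference. At the first end, Os01g0108200 had a log2 FC of -0.01 in control and 0.37 under salt, whereas the next member, Os01g0108400, had -5.47 and -5.24. Just before the range, Os01g0107900 had -0.32 in control and 0.17 under salt. Beyond the last member, Os01g0189700 had no fragment in any IL22 library, against 32.3, 42.5 and 36.9 CPM in salt-treated OLESA and 35.3, 33.8 and 26.0 CPM in control OLESA. The locus after it, Os01g0189800, had 0.468, 0.451 and 0.804 CPM in salt-treated IL22, against 23.4, 35.9 and 52.9 CPM in salt-treated OLESA. Both differed in control too (adjusted p = 0.000165 and 0.00101), so loci that differ continue past the last end of the rule.

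From there to the start of the second run on chromosome 1, 3 of 212 tested loci at 5 CPM were called (1.42%), the last being Os01g0262600 (log2 FC -1.87 in control). Before the first end, 1 of 37 was called, Os01g0105400 (log2 FC -2.79). The second run held 44 calls of 332 tested (13.3%; 12 higher and 32 lower in IL22), and the run on chromosome 3 held 10 of 114 (8.77%; 2 higher and 8 lower). The differences in these shares and directions between runs were not tested. At the CPM limit, Os01g0136600 and Os01g0124100 lay just inside at 5.19 and 5.26 CPM in their highest group, and Os01g0138600 and Os01g0130900 just outside at 4.99 and 4.95 CPM.

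**Figure D3:**
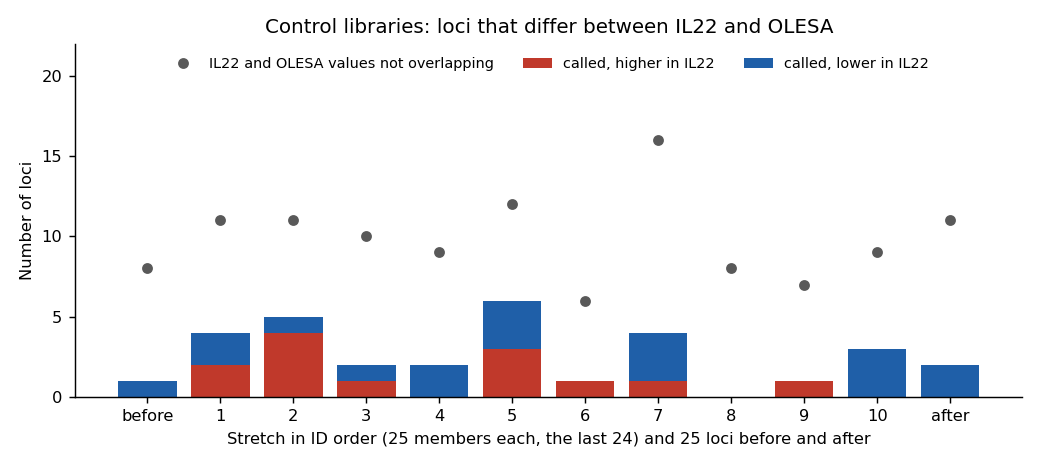
Number of loci per stretch of the run that were called between IL22 and OLESA in the 6 control libraries (bars, higher in IL22 in red and lower in blue) and whose 3 IL22 and 3 OLESA values did not overlap (points). Calls ran from 0 to 6 per stretch of the run, and 1 and 2 were found in the 25 loci before and after it.

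The response to salt was measured within each genotype, and the shares of members called were near those of all features. In IL22, 18 of 249 members were called (7.23%; 15 higher and 3 lower under salt), against 5.17% of all 20760 features (2.92% higher and 2.25% lower). In OLESA, 58 members were called (23.3%; 38 higher and 20 lower under salt), against 21.6% of all features (11.7% higher and 9.89% lower). The median log2 FC among the called members was 1.14 for those higher and -1.15 for those lower in salt-treated IL22, and 1.33 and -1.10 in OLESA. Of the members higher under salt, 5 were called in both genotypes, which is 33.3% of the IL22 list and 13.2% of the OLESA list. None was called lower in both, and none was called in opposite directions. The same overlap over all features is not given, so nothing is read from these counts.

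**Figure D4:**
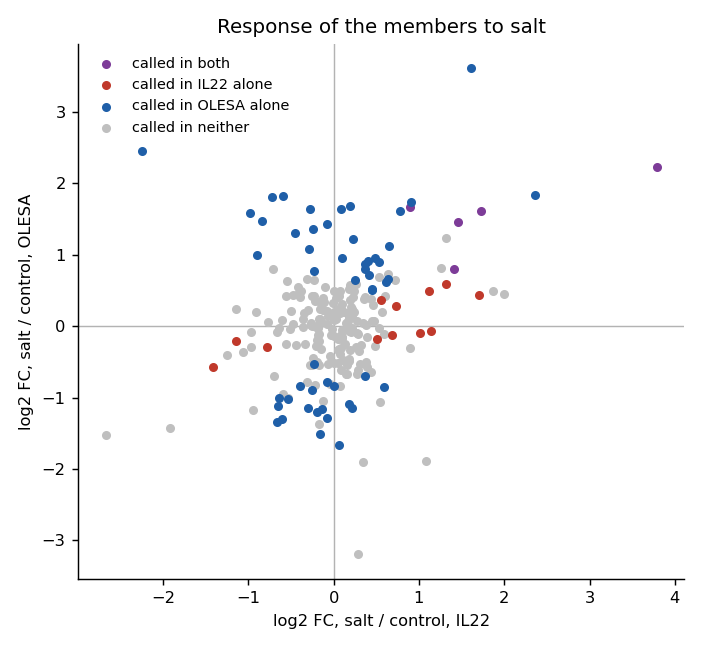
log2 FC of salt over control in IL22 (horizontal) and OLESA (vertical) for 243 members, the 6 without counts in one genotype being left out. Of the points, 5 were called in both genotypes, 12 in IL22 alone, 52 in OLESA alone and 174 in neither.

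These counts depended on single libraries. In IL22 the count was 48 when control replicate 1 of that line was left out, 4 when replicate 2 and 9 when replicate 3 was left out. Leaving out salt-treated IL22 replicate 1, 2 or 3 gave 4, 5 or 11. Only Os01g0124650 and Os01g0179800 were called in IL22 whichever of the 12 libraries was left out. In OLESA the count was 25 when control replicate 2 and 34 when control replicate 3 was left out, and 23 members were called whichever library was left out.

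Os01g0124650 had the largest rise among the members called in IL22. It had 311, 343 and 94.6 CPM in salt-treated IL22, against 19.0, 13.1 and 22 CPM in control IL22 (log2 FC 3.79 ± 0.59, adjusted p = 0.00371). In OLESA it had 53, 9.77 and 28.0 CPM under salt, against 3.81, 6.13 and 9.28 CPM in control (log2 FC 2.23 ± 0.58, adjusted p = 0.0176). The call in IL22 held in every setting, whereas that in OLESA was lost without OLESA control replicate 1 (adjusted p = 0.0524) or 2 (0.0649) or salt-treated OLESA replicate 1 (0.0743). The rise was not shown to differ between the genotypes (interaction 1.56 ± 0.78, adjusted p = 0.234). In salt-treated libraries every IL22 value was above every OLESA value.

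Os01g0185400 rose by nearly the same amount in both genotypes. It had 81.2, 81.2 and 47.8 CPM in salt-treated IL22, against 27.3, 23.9 and 25.4 CPM in control IL22 (log2 FC 1.46 ± 0.28, adjusted p = 0.0111). Salt-treated OLESA had 26.2, 36.6 and 63.0 CPM, against 14.5, 15.9 and 15.6 CPM in control OLESA (log2 FC 1.45 ± 0.29, adjusted p = 0.00542). The interaction was 0.00 ± 0.44. The call in IL22 was lost without IL22 control replicate 2 (adjusted p = 0.0562) and without salt-treated IL22 replicate 1 (0.0613) or 2 (0.0556).

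Falls under salt in IL22 were fewer. Os01g0179800 had 187, 186 and 145 CPM in salt-treated IL22, against 434, 310 and 406 CPM in control IL22 (log2 FC -1.15 ± 0.17, adjusted p = 0.00293). In OLESA it had 249, 287 and 227 CPM under salt, against 289, 322 and 269 CPM in control, and these overlapped. Os01g0175700 had 16, 13.7 and 18.8 CPM in salt-treated IL22, against 69.7, 34.1 and 25.3 CPM in control IL22 (log2 FC -1.42 ± 0.32, adjusted p = 0.0243), with IL22 control replicate 1 the highest of its group. In OLESA it had 89.9, 109 and 72.8 CPM under salt, against 173, 113 and 116 CPM in control. IL22 was below OLESA at this locus in all libraries, but the call of the fall in IL22 was lost without salt-treated IL22 replicate 1, 2 or 3 (adjusted p = 0.0997, 0.106 and 0.0524) and in a fit of the IL22 libraries alone (0.0694).

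In OLESA, the largest rise after that of Os01g0160800 among the members named by the rule was at Os01g0111900. It had 41.4, 43.1 and 23.0 CPM in salt-treated OLESA, against 3.88, 5.49 and 10.0 CPM in control OLESA (log2 FC 2.45 ± 0.81, adjusted p = 0.0448). This call was lost in 9 of 17 alternative settings, each of them the loss of 1 library, with adjusted p up to 0.133. Among the settings that left out 1 library, it held without IL22 control replicate 1 or 3 or salt-treated IL22 replicate 2. Os01g0131300 had 43.2, 45.6 and 37.6 CPM in salt-treated OLESA, against 66.4, 93.8 and 160 CPM in control OLESA (log2 FC -1.34 ± 0.26, adjusted p = 0.00542), and that call held in every setting. Os01g0152900 had 2.96, 2.11 and 8.10 CPM in salt-treated OLESA, against 9.80, 16 and 12.3 CPM in control OLESA (log2 FC -1.50 ± 0.41, adjusted p = 0.0229). Its call was lost without OLESA control replicate 2 (adjusted p = 0.0862) or 3 (0.0533) and without salt-treated OLESA replicate 1 (0.0796) or 2 (0.0719).

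**Figure D5:**
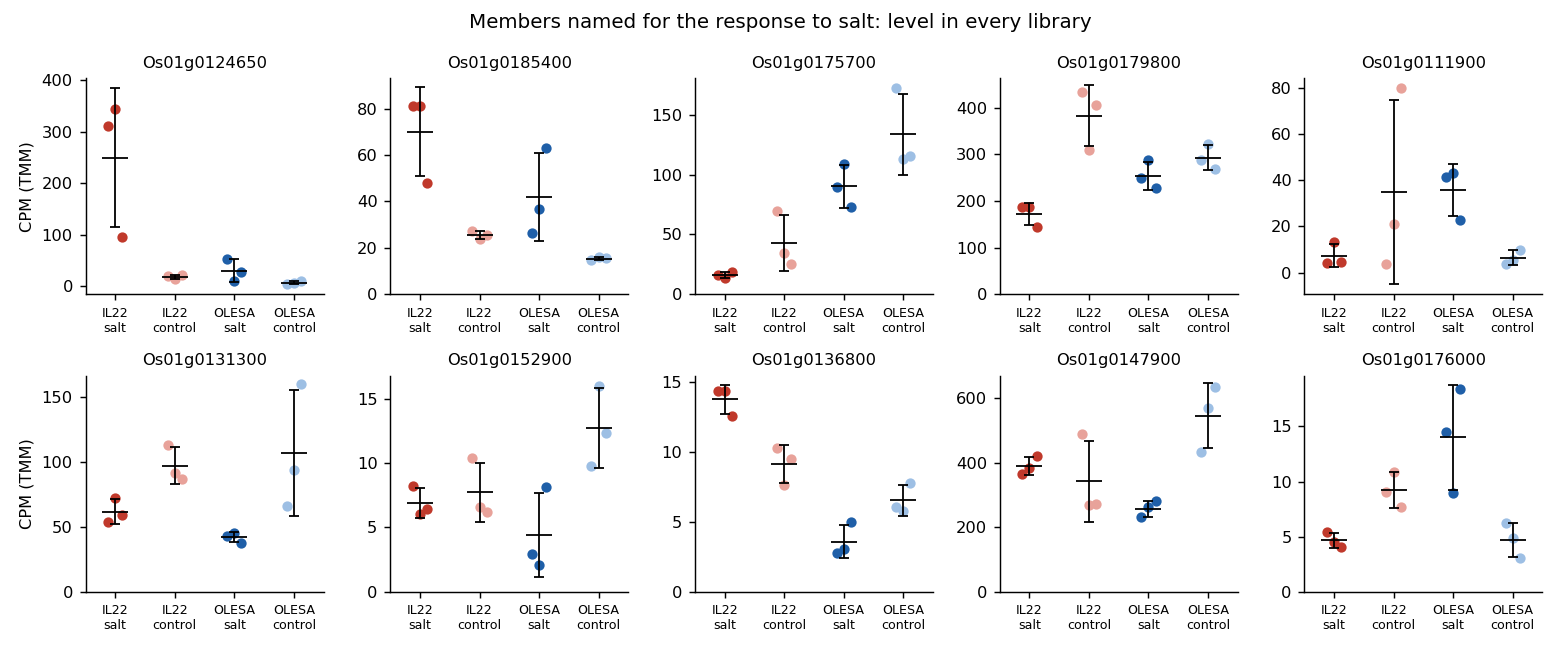
Level of 10 members named for salt or for the difference in response, in every library, in TMM-normalized CPM on linear axes that differ between panels. Points are the 3 libraries of each group and bars give the mean and SD. Os01g0124650 is higher under salt in both genotypes. The values of Os01g0176000 are lower under salt in IL22, where the fall was not called, and higher under salt in OLESA.

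The difference between IL22 and OLESA in the response to salt was tested as an interaction. The difference between IL22 and OLESA under salt, which chose the range, enters this test, so its calls are not independent of that choice. It was called in 15 of 249 members (6.02%), against 4.99% of all features. It was positive, higher in IL22, in 3 members (1.43% of all features) and negative in 12 (3.56% of all features). In 13 of the 15 the estimated responses had opposite signs, and in 13 the change was larger in OLESA. Among the 15, only Os01g0179800 was called for salt in IL22, with negative estimates in both genotypes (-1.15 in IL22 and -0.21 in OLESA). The opposite signs thus do not show reversals, and their share over all features is not given. The count was 54 without IL22 control replicate 1 and 22 without salt-treated OLESA replicate 3, and 12 without OLESA control replicate 1. It was 1 without IL22 control replicate 3 or salt-treated OLESA replicate 1 or 2. It was 0 without IL22 control replicate 2, OLESA control replicate 2 or 3 or any of the salt-treated IL22 libraries. No member was called whichever library was left out. In the settings with 0 calls, 44 to 54 members had an unadjusted p under 0.05. With all libraries 59 members did (23.7%), against 24.7% of all features, so nothing is read from these counts. DESeq2 called 32 with all libraries.

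At Os01g0176000 the estimated responses had opposite signs, but only the rise in OLESA was called. It had 5.39, 4.51 and 4.10 CPM in salt-treated IL22, against 9.06, 10.9 and 7.68 CPM in control IL22 (log2 FC -0.97 ± 0.31, adjusted p = 0.0876). Salt-treated OLESA had 14.5, 8.93 and 18.4 CPM, against 6.20, 4.85 and 3.06 CPM in control OLESA (log2 FC 1.58 ± 0.31, adjusted p = 0.0053). The groups did not overlap in either genotype, and the interaction was -2.56 ± 0.44 (adjusted p = 0.0247). Os01g0111900 had 4.31, 13.2 and 4.50 CPM in salt-treated IL22, against 3.70, 21.2 and 79.8 CPM in control IL22 (interaction -4.70 ± 1.14, adjusted p = 0.039). The control IL22 values of that locus spanned more than the other 3 groups together, and salt and control overlapped in IL22.

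Both members named for a positive interaction were lower under salt in OLESA. Os01g0136800 had 2.79, 3.03 and 4.99 CPM in salt-treated OLESA, against 6.06, 5.77 and 7.78 CPM in control OLESA (log2 FC -0.85 ± 0.25, adjusted p = 0.0308). This call was lost without OLESA control replicate 2 (adjusted p = 0.0601) or 3 (0.104), without salt-treated OLESA replicate 1 (0.103) or 2 (0.0998) and in a fit of the OLESA libraries alone (0.0869). In IL22 it had 14.4, 14.4 and 12.6 CPM under salt, against 10.3, 7.62 and 9.51 CPM in control (log2 FC 0.59 ± 0.24, adjusted p = 0.179). Os01g0147900 had 230, 261 and 280 CPM in salt-treated OLESA, against 434, 568 and 633 CPM in control OLESA (log2 FC -1.09 ± 0.23, adjusted p = 0.00713). In IL22 it had 364, 382 and 419 CPM under salt, against 487, 267 and 273 CPM in control, which overlapped because IL22 control replicate 1 lay above all 3 salt-treated values. Their interactions were 1.44 ± 0.35 (adjusted p = 0.0394) and 1.27 ± 0.32 (adjusted p = 0.0424). All 4 of these interaction calls were lost in at least 8 of 16 alternative settings, among them those without IL22 control replicate 2, OLESA control replicate 2 or 3, salt-treated OLESA replicate 1 or any salt-treated IL22 library.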

How the data were processed

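The authors sequenced stranded leaf libraries and, per the submitters' processing notes and the paper's methods, used bcl2fastq 2.20, cutadapt 1.11, STAR 2.5.2b and featureCounts 1.5.1 with the *japonica* build IRGSP-1.0. The deposited values are raw fragment counts per feature, not normalized. Members with near-identical copies are uncertain, because the sources used here do not give how fragments that match several genes were handled. Every column belonged to a labelled sample.

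The analysis used edgeR 4.0.16 in R 4.3.3 (TMM, quasi-likelihood test, Benjamini-Hochberg adjustment over all features). Features with low counts were filtered with filterByExpr (minimum count 10, total 15). The genotype in control was fitted on the 6 control libraries (19635 features), and salt and interaction on all 12 libraries (20760 features). A call required a log2 FC beyond 0.5 at an adjusted p not above 0.05 (no FC limit for the interaction). SE values were derived from the F statistic. The steps were tested on simulated data. The authors' own filter and FPKM criterion were not applied.

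The members, the range, the stretches and the tests were chosen with earlier results of these data known. For each comparison, the 2 called members highest and the 2 lowest in log2 FC were named, among those of at least 10 CPM in the higher group and without overlap between the groups compared, as were the edges of the rule. For the interaction the order was by its size, and salt and control had to be without overlap in at least 1 genotype. Of members without counts in one genotype, all 6 are named, those beyond 2 per direction after their values were seen. The RefSeq gene table of assembly ASM3414082v1 describes another build and matched 1 of 36844 feature IDs and 0 members, so names, coordinates and sequences were not used here. Alternatives were RLE factors, no filter, DESeq2 1.42.0, a replicate block, other libraries in the fit, other CPM and FC limits and leaving out each library. Total counts per library, 11505396 to 23578477, set the precision.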

Additional observations from a re-analysis of the deposited data

Results flagged for a closer look

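In 4 of the named members, the response to salt was called different between IL22 and OLESA by the interaction test of edgeR, with adjustment over all features. They were named by the size of the interaction among 15 members called (6.02%, against 4.99% of all features). No member of the 15 was called whichever library was left out. The difference under salt, which chose the range, enters this test. The log2 response of IL22 minus that of OLESA was 1.44 at Os01g0136800 (adjusted p = 0.0394) and 1.27 at Os01g0147900 (adjusted p = 0.0424). It was -4.70 at Os01g0111900 (adjusted p = 0.039) and -2.56 at Os01g0176000 (adjusted p = 0.0247). Over 16 alternative settings the sign did not change at any of the 4. The call was lost in 10, 10, 11 and 8 settings in the order given, with adjusted p up to 0.107, 0.117, 0.105 and 0.0851. Leaving out IL22 control replicate 2, OLESA control replicate 2 or 3, salt-treated OLESA replicate 1 or any salt-treated IL22 library ended the call at all 4. With 3 libraries per group, no test for a single distant library was made.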

How the results depend on the processing

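None of the calls that the report gives for single members changed sign under the alternatives. Counts of members called for IL22 against OLESA in control, 28 in the report, ran from 20 to 90 when 1 library was left out. They were 65 with DESeq2, 46 without the filter on low counts, 50 in the fit of all 12 libraries and 18 for members of at least 10 CPM. Chosen after seeing the data, a limit of 5 CPM over all libraries gave 16 calls of 221 members, and the limit in both genotypes gave 3 of 204. Of the 28, 19 were called whichever control library was left out, 7 higher and 12 lower in IL22. For salt in IL22, 18 in the report, leaving out 1 library gave 4 to 48 and DESeq2 gave 28. For salt in OLESA, 58 in the report, the range was 25 to 73, and 36 had a log2 FC beyond 1. For the interaction, 15 in the report, the range was 0 to 54 and DESeq2 gave 32. The description of IL22 against OLESA under salt gave 57 to 69 members when 1 library was left out, and 58 in the salt libraries alone. The causes were not tested.

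The replicate numbers are shared between groups but were not shown to pair the samples. Over 12 pairs with the same number, deviations from the group means correlated at -0.33 to 0.20, and 3 pairs exceeded 0.1. With the replicate number as a block, the counts by edgeR were 15 (genotype in control), 13 (IL22 under salt), 48 (OLESA under salt) and 0 (interaction). For the last, 55 members had an unadjusted p under 0.05. Without the block 59 members did (23.7%), against 24.7% of all features. The 4 named interaction calls had adjusted p of 0.0614 to 0.0872 with the block. The block also ended the control calls of Os01g0117500 (0.0681), Os01g0120300 (0.158), Os01g0130400 (0.0598) and Os01g0158900 (0.0778).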
